A study of Mus musculus with 12 samples.

Results

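Genes for the proteins of the mitochondrial ribosome were taken from the mouse RNA-seq counts of bone marrow macrophages (BMMs) and of mesenchymal stem cells (MSCs). They are the protein-coding genes whose symbol in the GRCm38 annotation begins with Mrpl or Mrps and a digit. This rule found 78 genes among the 55487 genes counted. Of these, 49 carry a name of the large subunit (Mrpl) and 29 a name of the small subunit (Mrps), and they lie on 17 chromosomes. A further 5 genes with such names are pseudogenes and were left out. Mrpl23, Mrpl48 and Mrps36 are the members with a further gene or pseudogene named after them. Whether reads were shared between such copies was not tested. Names do not always give the place in the particle: Mrps30 and Mrps18a sit in the large subunit, and Mrps36 is a component of the oxoglutarate dehydrogenase complex. Among the members, 77 held enough counts to be tested in both experiments.

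The BMMs were grown with macrophage colony-stimulating factor from limb marrow of female C57BL/6 mice that had undergone ovariectomy (OVX), a loss of the main source of estrogen, or a sham operation. The labels give an age of 8 weeks, which is the age at surgery in the study's methods. There were 3 OVX and 3 sham libraries. The second experiment used MSCs from limbs of C57BL/6 mice, with the same age in the labels. They grew without other cells (MSC), or shared medium through a transwell with RAW264.7 cells that were unstimulated (MSC+RAW-TW) or stimulated by lipopolysaccharide (MSC+RAW-LPS-TW), with 2 libraries a group. RAW264.7 is a mouse macrophage-like tumor line, and lipopolysaccharide is a bacterial wall component that activates macrophages. The labels do not say which libraries came from separate animals or cultures, so p-values measure the spread between these libraries, which may be technical.

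The mitochondrial ribosome translates the few mRNAs that mitochondrial DNA encodes, all of them for membrane-embedded subunits of the respiratory chain and ATP synthase. Its ribosomal RNAs come from mitochondrial DNA, whereas its proteins are encoded in the nucleus, made in the cytosol and imported. Many of these proteins descend from bacterial ribosomal proteins, and others occur in mitochondria only. Macrophages and stromal cells both depend on this system to build the respiratory chain, and activated macrophages are known to shift from respiration toward glycolysis.

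Libraries held between 17012923 and 45367105 counts. Of counts from 1 to 20, between 60% and 71.4% were even, depending on the library. A read pair may thus have entered as more than 1 count, which was not tested. Sham replicates 2 and 3 were nearly identical, as were both MSC+RAW-TW libraries. In genes of high count, the chi-square between the libraries of these pairs was 2.78 and 3.35 times that of sampling alone, against 23.3 to 150 times in the other pairs of 1 group. In genes of low count it was 2.58 and 3.07 times in these pairs. A pair was taken as nearly identical where its high-count value was less than 3 times its low-count value. Each such pair was therefore counted as 1 sample, which leaves n = 3 for OVX, n = 2 for sham, MSC and MSC+RAW-LPS-TW, and n = 1 for MSC+RAW-TW. Comparisons with MSC+RAW-TW thus have no test. The RNA of bulk cells does not tell fewer cells of a type from less RNA per cell.

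Cell type markers did not all follow the labels. All 20 macrophage markers stood above 1 CPM (counts per 1000000 counts of a library, TMM-scaled) in the 6 MSC libraries too. Their summed level was 32016 and 32053 CPM in MSC, 42147 and 42712 in MSC+RAW-TW, and 16523 and 17239 in MSC+RAW-LPS-TW. Lyz2 alone gave 21614 and 21705 CPM of it in MSC and 26666 and 26271 CPM in MSC+RAW-TW. In the BMM experiment the sum over the 20 markers ranged from 47996 to 51791 CPM in OVX and from 65465 to 69996 in sham. The summed level of 12 stromal markers was 2142 to 4061 CPM in the MSC libraries and 7187 to 8136 CPM in the BMM libraries, each experiment scaled on its own. Single stromal markers differed in this. The collagen gene Col1a1 had 454 to 795 CPM in the MSC libraries and 1905 to 2054 CPM in the BMM libraries, and Thy1 had 0.24 to 2.16 CPM and 52.7 to 69.2 CPM. Pdgfrb, at 139 to 167 CPM and 91.1 to 114 CPM, and Eng, at 61.7 to 131 CPM and 18.4 to 30.0 CPM, stood higher in the MSC libraries. The part of such cell mixtures in the results below was not tested.

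Promoters of the members were searched for motifs of factors known to drive nuclear genes of mitochondria. NRF1 binds a palindromic GC-rich site, and GABP, also called NRF2, binds the ETS core. Of the 78 members, 69 had a RefSeq promoter window of 300 bases (250 before and 50 after the start, GRCm38.p6). The ETS core CCGGAAG stood on either strand in 26 of these 69 members (37.7%), against 13.4% of all protein-coding genes with a window. The NRF1-like core GCGCNTGCG stood in 18 members (26.1%), against 10.1% of all protein-coding genes. The cores can share no more than 1 end base. At least 1 of them was found in 37 members (53.6%), against 21.3% of all protein-coding genes. A match is a description of the letters and not a known binding site.

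The 100 bases before the start are shown for 6 members described below, chosen because a core stands there and as examples of both kinds of core and of both directions of change, read along the gene from 5′ to 3′, with every core in capitals. Further described members, such as Mrpl32, Mrpl51 and Mrpl52, also have a core in these 100 bases. Mrpl28, Mrpl2 and Mrpl55, which also fell in OVX, have none there, nor do Mrps6, Mrpl18, Mrpl21 and Mrpl1. Mrpl12 fell in OVX, Mrpl45 rose and Mrpl43 fell in MSC+RAW-LPS-TW, Mrpl34 and Mrpl58 were among the members highest above MSC in MSC+RAW-TW, and Mrpl3 was among the few that were lower there. Mrpl12 and Mrpl45 hold an NRF1-like core, Mrpl34, Mrpl58 and Mrpl3 an ETS core, and Mrpl43 holds both kinds. The start is that of RefSeq. In the annotation used for the symbols, exons of the gene itself cover 24 bases of the Mrpl12 window and 29 of the Mrpl3 window. The core of Mrpl3 lies within these exon bases, and that of Mrpl12 does not. The windows lie at chr11:120484537-120484636, plus strand (Mrpl12), chr11:97315616-97315715, plus strand (Mrpl45), chr19:45006443-45006542, minus strand (Mrpl43), chr8:71464826-71464925, plus strand (Mrpl34), chr11:115403652-115403751, plus strand (Mrpl58) and chr9:105053168-105053267, plus strand (Mrpl3).
Mrpl12: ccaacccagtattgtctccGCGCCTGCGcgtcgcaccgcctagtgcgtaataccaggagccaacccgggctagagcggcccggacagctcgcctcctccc
Mrpl45: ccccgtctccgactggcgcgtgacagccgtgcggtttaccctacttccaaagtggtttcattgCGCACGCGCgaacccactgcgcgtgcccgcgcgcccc
Mrpl43: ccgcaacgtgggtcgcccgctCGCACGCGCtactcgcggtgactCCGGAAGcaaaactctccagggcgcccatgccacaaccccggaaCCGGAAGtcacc
Mrpl34: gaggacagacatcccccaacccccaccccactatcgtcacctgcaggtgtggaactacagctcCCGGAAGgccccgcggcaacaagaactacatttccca
Mrpl58: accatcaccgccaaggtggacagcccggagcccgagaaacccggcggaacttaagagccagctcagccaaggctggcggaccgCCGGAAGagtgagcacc
Mrpl3: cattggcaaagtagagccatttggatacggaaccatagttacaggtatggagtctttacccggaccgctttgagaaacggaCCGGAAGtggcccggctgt

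Members with and without an ETS core had like medians in the OVX comparison, with a median log2 fold change of -0.22 over 25 tested members with an ETS core and -0.20 over 43 without it. In MSC+RAW-TW against MSC the medians were 0.88 with an ETS core and 0.64 without, and 0.43 with an NRF1-like core (18 members) and 0.78 without (50 members). With GC and length trends removed the last pair was 0.72 and 0.83, and with library totals 0.07 and 0.42. The ETS pair was 0.96 and 0.71 with these trends removed, and 0.52 and 0.28 with library totals. Library totals also put the OVX medians at 0.03 with an ETS core and 0.05 without. These values are given without a test.

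Levels per gene length, as TPM (counts per base of the gene, scaled to the same total in every library), spread widely among the members. The median was 38.8 TPM in the BMM experiment and 40.5 TPM in the MSC experiment. Members of the large subunit had a higher median level (39.5 and 45.1 TPM) than those of the small subunit (22.8 and 22.5 TPM). The same 3 genes led in both experiments. They were Mrpl14 (255 TPM in BMMs, 189 TPM in the MSC experiment), Mrpl52 (198 and 207 TPM) and Mrpl54 (187 and 246 TPM), of which Mrpl14 has a bacterial counterpart and the others are specific to mitochondria. Across 77 members the order of levels in both experiments was alike (Spearman's rho 0.93, a description over genes whose level also depends on their length and sequence).

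The lowest members were Mrpl53, Mrps34, Mrps18b (3.28 TPM in BMMs) and Mrpl1 (3.1 TPM in the MSC experiment). Mrpl53 had 0 counts in all 12 libraries, which allows up to 0.0661 to 0.176 CPM depending on the library. Of its exon bases, 88.0% are shared with another gene on the same strand. Mrps34, at 0.656 and 2.63 TPM, shares 77.8% of its exon bases with other genes. Reads from shared bases may have been left uncounted, so that low values of these genes are uncertain. The same limit holds for Mrps6, Mrps24 and Mrps18c, which share 19.9%, 15.4% and 23.2% of their exon bases with other genes on the same strand. Opposite-strand genes cover 69.8% of the exon bases of Mrps25, 30.5% of Mrps18b, 26.3% of Mrpl24 and 33.4% of Mrpl43, and the strand setting of the counting is not given in the sources used here.

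The first comparison asked how OVX changed the macrophages. The mRNAs of the mitochondrial ribosome were modestly lower in OVX than in sham under TMM scaling, and 4 members fell by the test, none of which was called once GC and length trends were removed. The summed level of all members was 3805, 4269 and 4192 CPM in OVX and 4715, 4827 and 4807 CPM in sham, and these ranges did not overlap. This order depended on the scaling. As a plain share of all counts, the members took 0.416%, 0.456% and 0.457% in OVX and 0.427%, 0.448% and 0.446% in sham, which overlap. TMM scaling puts the median log2 fold change of all tested genes at -0.01, whereas plain library totals put it at 0.24. Against that median of all genes, the members lay 0.21 lower on the log2 scale with TMM (-0.21) and 0.22 lower with library totals (-0.22). Their own median was -0.22 with TMM and turned to 0.03 with library totals.

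**Figure D1:**
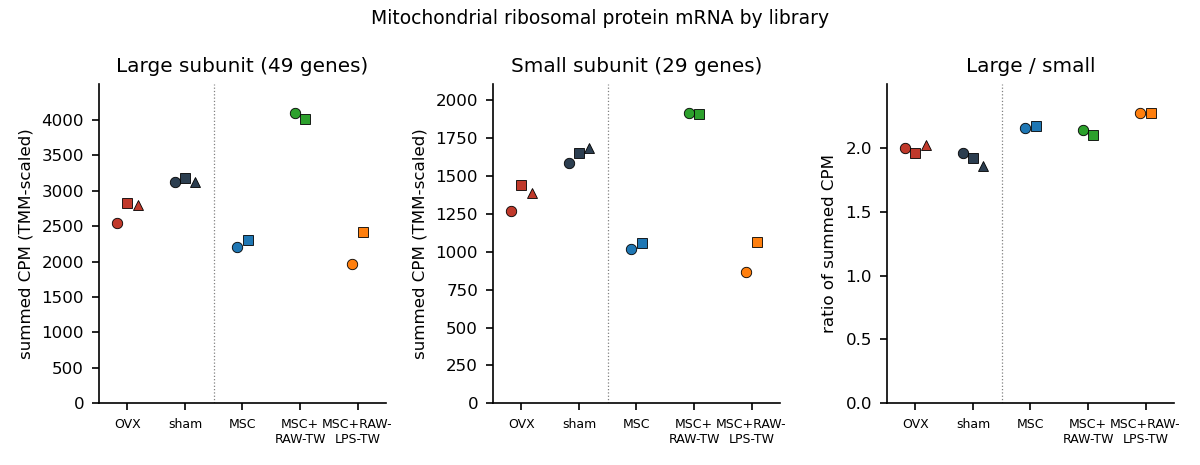
Summed level of the 49 large-subunit genes, of the 29 small-subunit genes, and the ratio of these sums, for each library (y axes: summed TMM-scaled CPM, or the ratio; circles, squares and triangles are replicates 1, 2 and 3, and BMM and MSC libraries are separated by a dotted line). For both subunits the OVX libraries lie below the sham libraries and the MSC+RAW-TW libraries lie above the other MSC libraries, while the ratio stays between 1.86 and 2.27.

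Of the 77 tested members, 61 had a negative log2 fold change in OVX and 16 a positive one, and 60 lay below the median of all genes. Large and small subunits had like medians (-0.24 and -0.22). By edgeR's quasi-likelihood test at an adjusted p of at most 0.05, 4 members were lower, against 5.83% of all genes. None was higher, against 7.25% of all genes, and none was higher at an unadjusted p of at most 0.05 or by DESeq2. None of the 4 changed 2-fold, which 8.46% of all genes did at that adjusted p. A share of 4 in 77 is close to the background. Every OVX library lay below every sham library for 25 members, 19 of the large and 6 of the small subunit, or 32.5% against 21.0% of all genes. The reverse held for 2 members, Mrpl13 and Mrpl42, or 2.60% against 21.8% of all genes.

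The 4 members called were all large-subunit genes. Mrpl28, a protein with a bacterial counterpart, had 55.2, 77.5 and 67.6 CPM in OVX and 100, 125 and 132 CPM in sham. OVX was lower in every library, with a log2 fold change of -0.79 (SE 0.21, adjusted p = 0.0456). Mrpl2, which lies next to the catalytic center where peptide bonds form, had 31.8, 32.0 and 35.7 CPM in OVX and 45.9, 63.8 and 61.6 CPM in sham. Its groups did not overlap either, at a log2 fold change of -0.72 (SE 0.19, adjusted p = 0.0462). Mrpl12 forms the flexible stalk that recruits translation factors, and it carries the NRF1-like core shown above. It had 57.2, 64.2 and 56.2 CPM in OVX and 84.5, 96.7 and 101 CPM in sham (log2 fold change -0.64, SE 0.18, adjusted p = 0.0486). Mrpl55, a mitochondria-specific protein, had 25.2, 27.6 and 27.9 CPM in OVX and 42.3, 38.4 and 42.0 CPM in sham. Its log2 fold change was -0.63 (SE 0.17, adjusted p = 0.0452).

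These calls stood close to the threshold and rested on single libraries. None of the 77 members was called when OVX replicate 1, 2 or 3 was left out, although 9, 9 and 7 were then lower at an unadjusted p of at most 0.05. Without sham replicate 1, 8 members were lower and 6 higher, without sham replicate 3 there were 2 calls, and without both libraries of the sham pair there was 1. With library totals in place of TMM there was no call, with 6 members higher and 3 lower at an unadjusted p of at most 0.05. DESeq2 called 9 members lower.

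**Figure D2:**
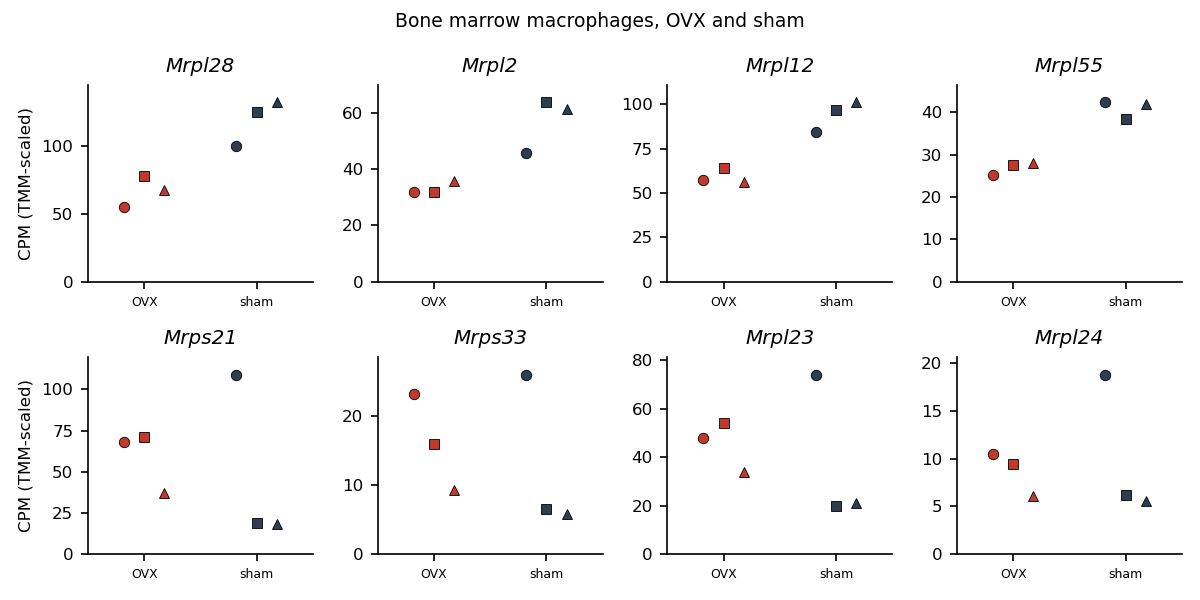
Level of 8 members in each BMM library (y axis: TMM-scaled CPM from 0; circles, squares and triangles are replicates 1, 2 and 3). In the top row, the 4 members called lower in OVX, all OVX libraries lie below all sham libraries. In the bottom row, 4 members chosen for their spread, sham replicate 1 lies far above the nearly identical sham replicates 2 and 3.

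Some members differed more within the sham group than between groups. Between sham replicate 1 and the mean of the sham pair, 19 of 77 members were at least 1.5-fold apart, 15 of them higher in replicate 1. The following 4, the largest, were chosen after their values were seen. Mrps21, a small-subunit protein with a bacterial counterpart, had 109 CPM in sham replicate 1 and 19.1 and 18.1 CPM in the pair, a ratio of 5.85, with 67.8, 71.2 and 36.8 CPM in OVX. Mrps33 had 26.0 CPM against 6.52 and 5.82 CPM, with 23.2, 16 and 9.22 CPM in OVX. Mrpl23, at the exit of the peptide tunnel, had 74.1 CPM against 19.8 and 21 CPM, with 47.9, 54.3 and 34.0 CPM in OVX. Mrpl24, also near the tunnel exit, had 18.8 CPM against 6.14 and 5.53 CPM, with 10.5, 9.45 and 6.11 CPM in OVX. For these genes all OVX values lay within the range of the sham libraries.

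The ratio of replicate 1 to the other replicates ran in parallel in OVX and sham (r = 0.72 over 77 members of the same 6 libraries, a description across genes). The fold changes of the members also followed their base composition. Across 77 members the log2 fold change in OVX correlated with GC content at r = -0.47, and across 16751 genes at r = -0.50. With GC and length trends removed, the median of the members was -0.15 and that of all genes -0.02, and 4 members were called lower, but none of them was among the 4 above. The changes of Mrpl28, Mrpl2, Mrpl12 and Mrpl55 were then -0.34, -0.27, -0.24 and -0.37, with adjusted p = 0.207, 0.352, 0.368 and 0.148 by edgeR. The members called instead were Mrps30 (-1.17), Mrpl15 (-1.13), Mrpl57 (-1.02) and Mrps14 (-0.96), whose changes with TMM alone were -0.46, -0.37, -0.47 and -0.19. Of these, Mrpl15 and Mrps14 have bacterial counterparts and the others are specific to mitochondria, and they were named after their values were seen.

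Functional sites of the ribosome were compared next. In OVX, Mrpl12 was the only called gene among the members assigned to a site. At the stalk and its base, Mrpl10 had a log2 fold change of -0.34 and Mrpl11 of 0.01. At the tunnel exit and the membrane side, the 7 members had a median of -0.22. Among them was Mrpl45, which ties the ribosome to the inner membrane and had the lowest value of any member (-0.90, SE 0.28, adjusted p = 0.0660), with 41.3, 65.2 and 69.0 CPM in OVX and 85.3, 135 and 130 CPM in sham. The central protuberance, which holds the structural RNA and contacts transfer RNAs, had a median of -0.24 over 6 members. The decoding center and mRNA entry (Mrps5, Mrps12 and Mrps24) had a median of -0.36. With library totals the medians of the tunnel exit and the central protuberance turned to 0.03 and 0.01, and those of the stalk and the decoding center were -0.08 and -0.11. With GC and length trends removed, the medians were -0.10 for the stalk and -0.19 for the tunnel exit. That of the central protuberance was then 0.02 and that of the decoding center -0.00. Of the 3 paralogs of bacterial S18, Mrps18a and Mrps18b had -0.78 and -0.39 and Mrps18c had 0.44, none of them called.

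The second comparison with a test set MSC+RAW-LPS-TW against MSC. The members as a whole lay close to the other genes here, and 4 rose and 4 fell. Their summed level was 3220 and 3357 CPM in MSC and 2827 and 3475 CPM in MSC+RAW-LPS-TW, so the groups overlapped. This too depended on the scaling, since the plain shares of all counts, 0.366% and 0.384% in MSC and 0.281% and 0.328% in MSC+RAW-LPS-TW, did not overlap. The median log2 fold change was -0.07, against -0.01 for all genes. With library totals these became -0.30 and -0.24, so that the distance to all genes stayed at -0.06. By the same test, 4 of 77 members were higher, against 11.1% of all genes, and 4 were lower, against 9.85%. Both shares lie below the background. All libraries of one group lay above those of the other for 13 members that were higher (16.9%, against 28.7% of all genes) and 24 that were lower (31.2%, against 28.9%).

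Mrpl45, the membrane anchor named above, rose the most. It had 55.9 and 57.3 CPM in MSC and 113 and 112 CPM in MSC+RAW-LPS-TW (log2 fold change 0.99, SE 0.15, adjusted p = 1.23e-04), with 94.0 and 94.2 CPM in MSC+RAW-TW. This was the one call that held in all 17 alternatives. Mrps33, a small mitochondria-specific protein, had 9.09 and 9.89 CPM in MSC and 15.1 and 15.2 CPM in MSC+RAW-LPS-TW (0.67, SE 0.20, adjusted p = 0.0219). Mrpl52 had 54.6 and 73.9 CPM in MSC and 76.1 and 126 CPM in MSC+RAW-LPS-TW. Its change was 0.65 (SE 0.21, adjusted p = 0.0401), with the lower treated library just above the higher control. Mrpl32, which must be cut by an inner-membrane protease before it joins the ribosome, had 28.4 and 30.8 CPM in MSC and 38.9 and 47.0 CPM in MSC+RAW-LPS-TW (0.53, SE 0.16, adjusted p = 0.0295).

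Among the members that fell, Mrps6, which shares exon bases with other genes as given above, had the largest change. This small-subunit protein with a bacterial counterpart had 84.7 and 80.9 CPM in MSC and 40.3 and 64.3 CPM in MSC+RAW-LPS-TW (-0.67, SE 0.19, adjusted p = 0.0200). Mrps35, a mitochondria-specific protein, had 30.8 and 31.8 CPM in MSC and 20.6 and 19.8 CPM in MSC+RAW-LPS-TW (-0.63, SE 0.16, adjusted p = 0.0107). Mrpl18 belongs to the central protuberance. It had 57.2 and 65.6 CPM in MSC and 38.7 and 44.6 CPM in MSC+RAW-LPS-TW (-0.56, SE 0.16, adjusted p = 0.0177). Mrpl43, whose window above holds both kinds of core, had 37.8 and 42.1 CPM in MSC and 28.4 and 27.2 CPM in MSC+RAW-LPS-TW (-0.53, SE 0.16, adjusted p = 0.0268).

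The count of calls moved with single libraries. Without MSC replicate 1 it was 2 and without MSC replicate 2 it was 4. Without MSC+RAW-LPS-TW replicate 1 it was 14, and without replicate 2 it was 18, of which 16 were lower. With library totals, 19 members were lower and 1 was higher. That scaling moved the median of all genes from -0.01 to -0.24, and the share of all genes called under it was not counted.

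**Figure D3:**
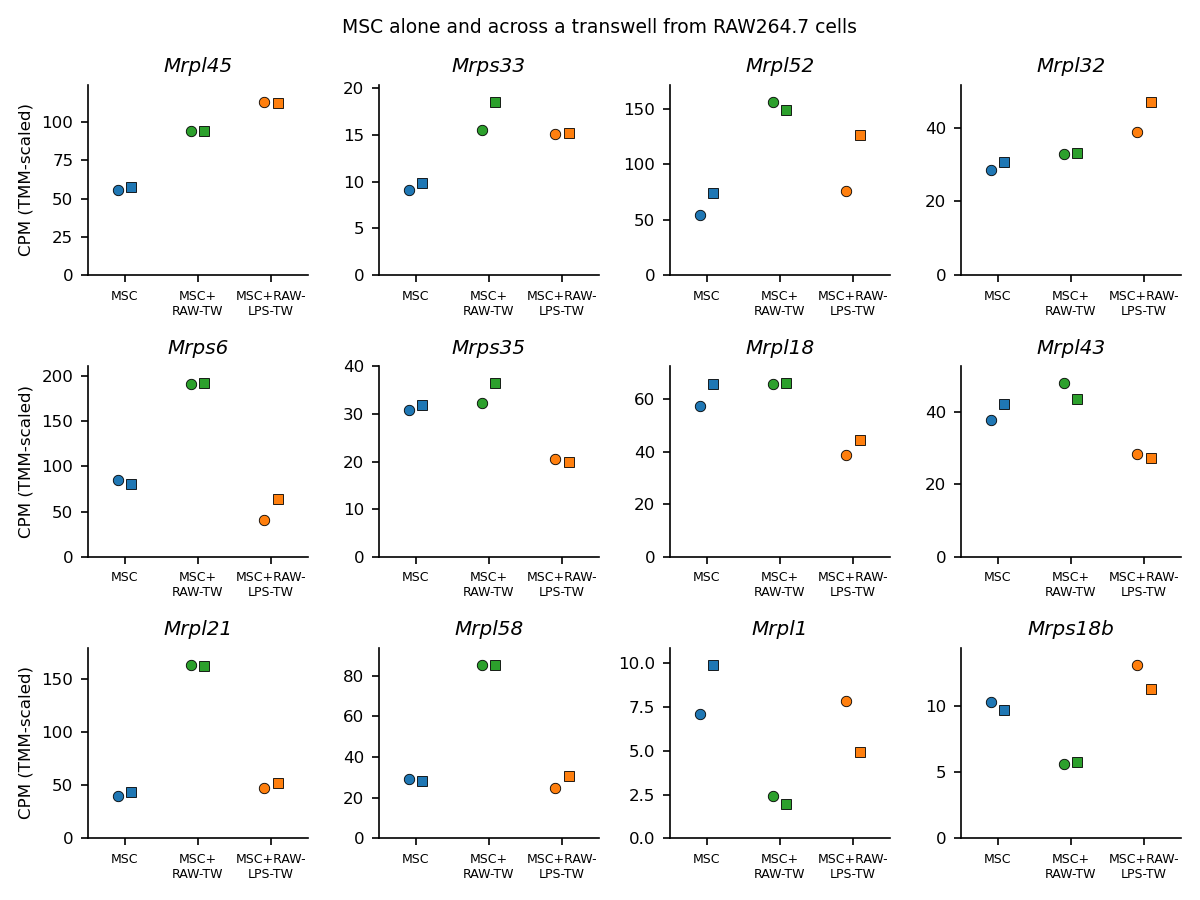
Level of 12 members in each MSC library (y axis: TMM-scaled CPM from 0; circles and squares are replicates 1 and 2). The top row holds the 4 members that rose in MSC+RAW-LPS-TW against MSC and the middle row the 4 that fell. The bottom row shows Mrpl21 and Mrpl58, highest in MSC+RAW-TW, and Mrpl1 and Mrps18b, lowest there.

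The third group, MSC+RAW-TW, stood apart from both others. The members' summed level was 6003 and 5915 CPM in its nearly identical libraries, above every library of the other groups in that experiment. As a share of all counts the members took 0.541% and 0.539% there, also above the shares given for the other groups. Against MSC, the median log2 fold change of the 77 members was 0.72, against -0.13 for all genes. With library totals it was 0.37, against -0.49 for all genes. The distance was 0.86 in both cases. At least 1.5-fold higher were 47 members (27 large, 20 small), against 24.4% of all genes, and at least 1.5-fold lower were 4, against 34.1%. With library totals these counts were 26 and 9, but the shares of all genes were not counted under that scaling. The comparison rests on 1 sample of MSC+RAW-TW and has no test.

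The 5 members highest in MSC+RAW-TW relative to MSC came from both subunits. Mrpl21, a large-subunit protein with a bacterial counterpart, had 39.3 and 43.5 CPM in MSC and 163 and 162 CPM in MSC+RAW-TW, 2.0 higher on the log2 scale. Mrpl58, also called Ict1, is a peptidyl-tRNA hydrolase that became part of the large subunit. It had 29 and 28.4 CPM in MSC and 85.4 and 85.2 CPM in MSC+RAW-TW (1.60). Mrpl34, a small protein with a bacterial counterpart, had 19.3 and 18.7 CPM in MSC and 54.2 and 56.1 CPM in MSC+RAW-TW (1.56). For these genes MSC+RAW-LPS-TW lay near MSC, at 47.2 and 51.9 CPM, 25 and 30.5 CPM, and 21.9 and 29.6 CPM. Mrps24, at the mRNA entry and with shared exon bases as given above, had 53.0 and 69.1 CPM in MSC and 173 and 171 CPM in MSC+RAW-TW (1.53). Mrpl51, a mitochondria-specific protein, had 69.6 and 78.7 CPM in MSC and 206 and 203 CPM in MSC+RAW-TW (1.5). Across all alternatives these 5 changes stayed at 1.12 or more.

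Of the 77 members, 62 were above 0 and 15 below it, and 4 of these were at least 1.5-fold lower. Mrpl1, part of the L1 stalk through which spent transfer RNAs leave, had 7.09 and 9.92 CPM in MSC, 2.40 and 1.96 CPM in MSC+RAW-TW and 7.87 and 4.91 CPM in MSC+RAW-LPS-TW (-1.92 against MSC). Mrpl3, a core protein of the large subunit, had 42.7 and 38.0 CPM in MSC, 23.5 and 18.8 CPM in MSC+RAW-TW and 37.6 and 40.3 CPM in MSC+RAW-LPS-TW (-0.89). Mrps18b had 10.3 and 9.69 CPM in MSC, 5.60 and 5.78 CPM in MSC+RAW-TW and 13.1 and 11.3 CPM in MSC+RAW-LPS-TW (-0.79), and it overlaps an opposite-strand gene as given above. Mrpl41, a mitochondria-specific protein, had 35.5 and 37.2 CPM in MSC, 23.4 and 23.5 CPM in MSC+RAW-TW and 29.1 and 22 CPM in MSC+RAW-LPS-TW (-0.60).

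Set against MSC+RAW-TW, which it shares with the previous comparison, MSC+RAW-LPS-TW had a median log2 fold change of -0.79 over the members and 0.14 over all genes. At least 1.5-fold lower were 49 members (30 large, 19 small), against 29.0% of all genes, and at least 1.5-fold higher were 3, against 37.4%. The largest negative values were those of Mrps6 (-1.91), Mrpl33 (-1.84), Mrpl21 (-1.74), Mrps15 (-1.67) and Mrpl58 (-1.65). Mrpl33, which has a bacterial counterpart, had 498 and 483 CPM in MSC+RAW-TW, the highest CPM of these genes, and 106 and 174 CPM in MSC+RAW-LPS-TW. Mrps15, a core small-subunit protein, had 131 and 137 CPM against 36.2 and 50.1 CPM. The 3 that were higher were Mrpl1 (1.51), Mrps18b (1.07) and Mrpl3 (0.84), all from the short list above that was low in MSC+RAW-TW.

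**Figure D4:**
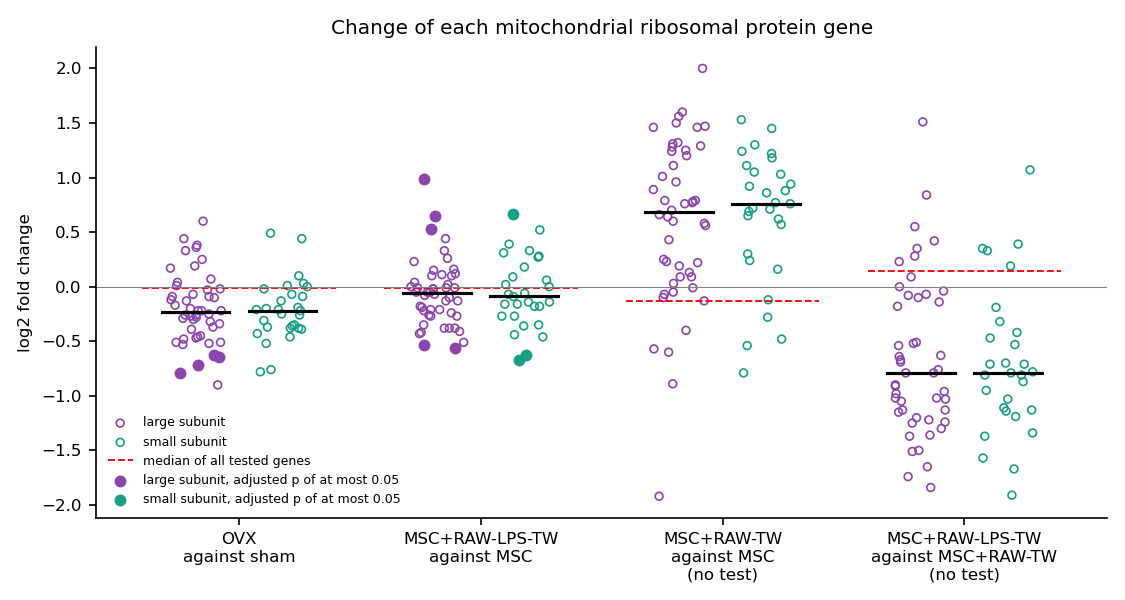
Log2 fold change of every tested member in the 4 comparisons (y axis; purple for 48 large-subunit and green for 29 small-subunit genes, filled where the adjusted p is at most 0.05, black bars for the medians, red dashed lines for the median of all tested genes). The members lie a little below the red line in OVX, around it in MSC+RAW-LPS-TW against MSC, mostly above it in MSC+RAW-TW and mostly below it in MSC+RAW-LPS-TW relative to MSC+RAW-TW.

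The sites of the ribosome did not all move alike between MSC+RAW-TW and MSC. The decoding center and mRNA entry had the highest median (1.11, all 3 members at least 1.5-fold higher), with Mrps5 at 1.11 and Mrps12 at 0.88. The stalk had 1.01, where Mrpl12 and Mrpl11 were 1.11 and 1.01 higher on the log2 scale while Mrpl10, which anchors the stalk, had 0.09. In the central protuberance 5 of 6 members were at least 1.5-fold higher, with Mrpl48 at 1.24, Mrpl38 at 0.96, Mrpl40 at 0.89, Mrpl46 at 0.79, Mrpl27 at 0.70 and Mrpl18 at 0.13. At the tunnel exit and membrane side the median was 0.22, which turned to -0.14 with library totals. There Mrpl23 (1.47), Mrpl17 (1.25) and Mrpl45 (0.76) were higher, and Mrpl44, Mrpl24, Mrpl22 and Mrpl47 had 0.22, -0.01, -0.10 and -0.40. The S18 paralogs split, with Mrps18c at 0.94, Mrps18a at 0.72 and Mrps18b at -0.79. Proteins with a bacterial counterpart and mitochondria-specific proteins had medians of 0.60 and 0.78 in the large subunit and of 0.80 and 0.73 in the small subunit.

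The sites held, for MSC+RAW-LPS-TW against MSC, only the calls of Mrpl45 and Mrpl18. The medians were -0.13 for the stalk, 0.04 for the tunnel exit, -0.16 for the central protuberance, 0.00 for the decoding center and 0.28 for the S18 paralogs, and with library totals those of the tunnel exit and decoding center were -0.19 and -0.24. In MSC+RAW-LPS-TW relative to MSC+RAW-TW they were -1.13, -0.08, -0.91, -1.11 and -0.42, of which that of the tunnel exit turned to 0.05 with library totals.

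Markers of macrophages also differed between these groups, in both directions. Relative to MSC, 14 of 20 macrophage markers were lower and 3 higher in MSC+RAW-LPS-TW (Mrc1 at -7.20 and Adgre1 at 1.42), and of 12 stromal markers 6 were higher and 1 was lower (Lum at 5.87 and Cxcl12 at -0.81). Between MSC+RAW-TW and MSC, 8 macrophage markers were at least 1.5-fold higher in MSC+RAW-TW and 5 lower, from Tyrobp at 1.67 to Cd300a at -1.11, with a median of 0.23 over the 20 that turned to -0.13 with library totals. In OVX against sham, 9 macrophage markers were lower and 2 higher, with Spi1 at -1.46 and Mrc1 at 2.0, and of the stromal markers Nt5e alone was called (1.46). Ribosomal RNA genes took 1.91% and 1.93% of the counts in MSC+RAW-TW, 4.14% and 4.83% in MSC, and 5.67% and 8.03% in MSC+RAW-LPS-TW. The part of these values in the members' changes was not tested.

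The other genes that serve the mitochondrial ribosome were taken as lists. Of 5 ribosomal proteins with other names, none was called in OVX or in MSC+RAW-LPS-TW against MSC, with medians of -0.34 and 0.01, and their median was 0.44 in MSC+RAW-TW against MSC. Of 24 genes for assembly of the ribosome and modification of its RNA, only Gtpbp10, a GTPase for maturation of the large subunit, was called in OVX (1.59, SE 0.40, adjusted p = 0.0361), and the median was -0.23. The comparison of MSC+RAW-LPS-TW with MSC had 4 of these 24 genes lower by the test, against 9.85% of all genes. They were led by Mettl17, a factor for assembly of the small subunit (-1.05, SE 0.22, adjusted p = 0.00226). In MSC+RAW-TW against MSC, 10 of the 24 were at least 1.5-fold higher and 6 lower, against 24.4% and 34.1% of all genes. With library totals the median of these assembly genes in OVX turned to 0.02, and that of the ribosomal proteins with other names in MSC+RAW-LPS-TW against MSC to -0.23. The medians of the proteins with other names were then -0.09 in OVX and 0.08 in MSC+RAW-TW against MSC.

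Among 14 tested translation factors, Guf1, a GTPase related to elongation factor 4, rose in OVX (1.19, SE 0.27, adjusted p = 0.0255) and fell in MSC+RAW-LPS-TW against MSC (-0.81, SE 0.22, adjusted p = 0.0152), and 2 others fell there. The medians were 0.03 and -0.18, and 0.35 in MSC+RAW-TW against MSC. None of 17 mitochondrial aminoacyl-tRNA synthetases and none of 4 genes for transcription of mitochondrial DNA was called in these tests. The synthetases had medians of -0.31 in OVX, -0.13 in MSC+RAW-LPS-TW against MSC and 0.26 in MSC+RAW-TW against MSC, and the transcription genes of 0.45, -0.09 and 0.28. With library totals the medians in MSC+RAW-TW against MSC turned to -0.01 for translation factors, -0.10 for synthetases and -0.07 for transcription genes, and that of the synthetases in OVX was -0.05. Of 8 tested regulators of mitochondrial biogenesis, Gabpa, the subunit of GABP that binds the ETS core, rose in OVX (1.20, SE 0.24, adjusted p = 0.0172) and Ppargc1b, a coactivator, fell (-1.42, SE 0.36, adjusted p = 0.0393). Ppargc1b also fell in MSC+RAW-LPS-TW against MSC (-1.27, SE 0.35, adjusted p = 0.0166), while Gabpa rose by 0.55, and Myc had the largest rise (0.80, SE 0.18, adjusted p = 0.00370).

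The medians of the transcripts that the ribosome translates lay on the other side of 0 from those of its proteins under TMM scaling. With library totals both medians were above 0 in OVX, 1.27 for these transcripts and 0.03 for the members, and both were below 0 in MSC+RAW-LPS-TW against MSC, at -0.22 and -0.30. The 13 mRNAs encoded by mitochondrial DNA had a median of 1.01 in OVX against sham, where all 13 lay above the median of all genes and 3 were called higher, led by mt-Atp6 (1.37, SE 0.24, adjusted p = 0.0113). Their summed level was 7394, 5505 and 4821 CPM in OVX and 4521, 2269 and 2248 CPM in sham. Sham replicate 1 thus lay closer to OVX replicate 3 than to the nearly identical sham pair. In MSC+RAW-TW against MSC the median of these mRNAs was -1.12, with 12 at least 1.5-fold lower, against 34.1% of all genes. In MSC+RAW-LPS-TW relative to MSC+RAW-TW it was 1.51. In MSC+RAW-LPS-TW against MSC the median was 0.02, with mt-Cytb higher (0.90, SE 0.27, adjusted p = 0.0243) and mt-Co3 lower (-0.67, SE 0.22, adjusted p = 0.0451). With GC and length trends removed, the medians of 1.01, -1.12 and 1.51 became 0.15, 0.06 and 0.32, whereas those of the members were -0.15, 0.75 and -0.77. For MSC+RAW-LPS-TW against MSC they became 0.09 and -0.05. The signs were then alike in MSC+RAW-TW against MSC and still opposite in the other comparisons. The ribosomal RNAs of the mitochondrial ribosome, mt-Rnr1 and mt-Rnr2, had medians of -0.17 in OVX, 0.74 in MSC+RAW-LPS-TW against MSC with both called, and -2.31 in MSC+RAW-TW against MSC. With GC and length trends removed these were -1.22, 0.79 and -1.09, and with library totals the OVX median turned to 0.09. The libraries were made from poly(A) RNA, so these RNAs without long tails are measured only in part.

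Lists of cytosolic ribosomal proteins and of nuclear subunits of oxidative phosphorylation were added after values were seen. The 81 tested cytosolic ribosomal proteins had medians of -0.06 in MSC+RAW-LPS-TW against MSC, 0.96 in MSC+RAW-TW against MSC and -1.08 in MSC+RAW-LPS-TW relative to MSC+RAW-TW, and of -0.18 over 82 genes in OVX. The 81 oxidative phosphorylation subunits had -0.11, 0.88, -0.90 and -0.36 in the same order. The members' values of -0.07, 0.72, -0.79 and -0.22 lay on the same side of 0 in each comparison. With library totals the OVX medians were 0.03 for the members, 0.07 for cytosolic ribosomal proteins and -0.11 for oxidative phosphorylation subunits.

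**Figure D5:**
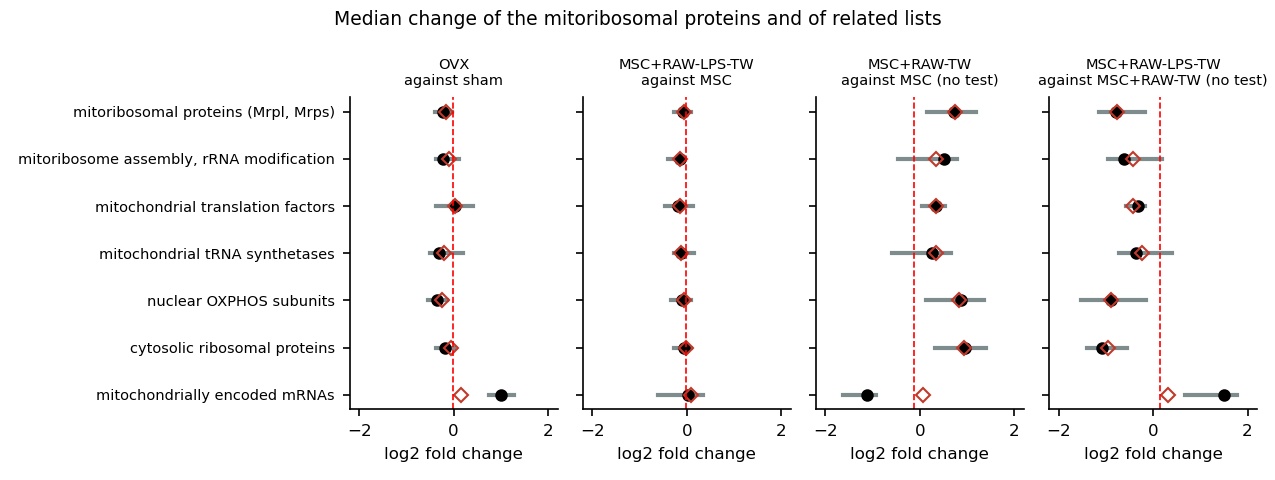
Median log2 fold change of 7 lists in the 4 comparisons (x axes; black circles for the medians, grey bars from the first to the third quartile, open red diamonds for the medians with GC and length trends removed, red dashed lines for the median of all genes). Members, cytosolic ribosomal proteins and nuclear OXPHOS subunits lie together, and mitochondrially encoded mRNAs lie on the opposite side of 0, close to it in MSC+RAW-LPS-TW against MSC. In the other 3 panels the diamonds of these mRNAs lie much closer to 0 than their circles.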

How the data were processed

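RNA-seq counts of 12 mouse libraries were analysed, 6 of BMMs and 6 of MSCs. According to the study's methods, poly(A) RNA was made into directional libraries and read on a NovaSeq, adapters were trimmed with Trim Galore 0.6.7, reads were mapped to GRCm38 with HISAT2 2.1.0, and featureCounts 2.0.1 counted them per Ensembl gene. The authors deposited these raw counts with the gene length in bp; the strand setting is not given in the sources used here. Library totals ranged from 17012923 to 45367105 counts.

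Counts were tested with edgeR 4.0.16 in R 4.3.3 (filterByExpr, TMM, glmQLFit and glmQLFTest, two-sided) over all genes of each experiment, 16768 for BMMs and 20499 for MSCs. A gene was called where its p adjusted by Benjamini-Hochberg was 0.05 or less. Nearly identical libraries of 1 group were summed and entered as 1 sample. Comparisons with MSC+RAW-TW have 1 sample on that side, so genes past a fold of 1.5 were counted with no p. The column names of the coculture groups conflict with the sample titles: both MSC+RAW-TW columns, which are nearly identical, are named MR-1, and those of MSC+RAW-LPS-TW are named MRL-2 and MRL-3 where the titles say rep1 and rep2. These columns were mapped to their group only, and their replicate numbers here are only names. CPM was scaled with TMM within each experiment, and TPM used the deposited lengths. Trends on GC content and length were removed by offsets from a lowess fit (span 0.3) as an alternative, and DESeq2 1.42.0 was another. The fits were also run on simulated counts, whose outcome is not reported here.

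The mitochondrial ribosomal proteins and all lists were chosen with earlier results of these data known. Named were up to 5 called members with the largest change each way in a tested comparison, up to 5 each way past a fold of 1.5 in an untested one, the 3 highest and 3 lowest by TPM, the members assigned to sites, and the called gene with the largest change each way in the other lists. Same-numbered OVX and sham libraries had correlations of their deviations of 0.54, -0.06 and 0.56, so the numbers were not taken to pair them.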

Additional observations from a re-analysis of the deposited data

How the results depend on the processing

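Calls in OVX against sham were sensitive to the fit. Their number was 4 in the reported fit, 9 with DESeq2, 10 with all libraries as separate samples and 0 with library totals in place of TMM. With all libraries separate and the leading digits of the library code in the column names as a block, it was 8. It was 1 without both libraries of the sham pair, and between 0 and 14 when single libraries were left out. With the replicate number as a block and all libraries separate it was 30, although the numbers were not shown to pair the libraries. The median change turned from -0.22 to 0.03 with library totals, which move the median of all genes by a like amount. In MSC+RAW-LPS-TW against MSC the calls went from 8 to 14 with all libraries separate, and to 20 with library totals. With all libraries separate and a suffix in the column names as a block, there were 16. The calls numbered 2 to 18 when single libraries were left out, and the median became -0.30 with library totals.

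In MSC+RAW-TW against MSC, library totals gave a median of 0.37 with 26 members at least 1.5-fold higher and 9 lower, and leaving out single libraries gave 3 to 7 lower. Without a filter the distance to all genes was 0.99. For MSC+RAW-LPS-TW relative to MSC+RAW-TW, the median was -0.66 with library totals, and the distance to all genes was -0.79 with GC and length trends removed and between -1.0 and -0.75 when single libraries were left out. Without ribosomal RNA and mitochondrially encoded genes in the total, the members' share of counts, in group means, went from 0.443% to 0.458% in OVX, from 0.437% to 0.459% in sham and from 0.375% to 0.394% in MSC, and was 0.551% in MSC+RAW-TW and 0.328% in MSC+RAW-LPS-TW. No named member that was called changed its direction. The library totals, the blocks by library code or suffix and the omission of the sham pair were chosen after seeing the data. Where a group was left with 1 library, it was assumed to vary like the others, and apart from the settings that change the scaling or the samples by construction, the cause was not tested. For the MSC comparisons a block by replicate number could not be fitted, since the coculture columns carry numbers that do not match the titles. A suffix in the column names, which marks 1 library of each group, was the block used instead. For BMMs the block was the leading digits of the library code in the column names. The labels do not say what the suffix or these digits stand for. The spread rests on 2 or 3 samples a group, which limits the precision. The depth was at least 17012923 counts a library, where a read pair may stand for more than 1 count. With counts halved, 4 members were called lower and 0 higher in OVX against sham. In MSC+RAW-LPS-TW against MSC these were then 5 and 4.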
